A study of Caenorhabditis elegans with 2 samples.

Results

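The small nuclear RNA (snRNA) genes W05B2.8, F38E11.10, C52E4.8, sup-6 and smy-1 of Caenorhabditis elegans lay near some of the strongest peaks of tagged SNPC-4 in L3 larvae. At smy-1 the strong peak had its summit upstream of the neighbouring gene smy-2, and the peak upstream of smy-1 itself ranked 853 of 2672. These 5 genes were chosen by the signal value of the authors' thresholded list: each had 1 of its 20 strongest peaks within 500 bp of the annotated 5′ end. Their peak strength is therefore a description and was not tested. They are 5 of 99 genes annotated as snRNA, spliced leader RNA genes aside, and of 46890 nuclear genes in all. Chromatin immunoprecipitation with sequencing was run on whole L3 larvae of both sexes from strain OP179, whose genotype is unc-119(ed3) III with wgIs179, an insertion that targets snpc-4. The protein that was pulled down carried an eGFP tag, a fluorescent protein. The labels give 2 biological replicates of this 1 group and no second condition. Whole animals mix all tissues, so the cell types in which a site was bound cannot be told apart, and the protein followed is the tagged one.

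SNPC-4 belongs to the SNAPc complex, which binds a short element upstream of snRNA genes and recruits the RNA polymerase that transcribes them. Most spliceosomal snRNAs are made by RNA polymerase II and carry a uridine-rich site for the ring of Sm proteins. In nematodes the SmY RNAs are a further class of small Sm-bound RNAs, known to associate with the machinery that joins spliced leaders to messenger RNAs.

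The 5 RNAs differ from each other in sequence, so 3 of them are shown first, 5′ to 3′, from the RefSeq annotation of WBcel235 (the assembly ce11 names), with DNA letters. Capitals mark AATTTTTG, a word of the Sm-site kind, and 1 further word in C52E4.8 and sup-6. W05B2.8 lies at chrIII:10989679-10989780 (plus strand), F38E11.10 at chrIV:9444642-9444763 (plus), C52E4.8 at chrV:11980118-11980261 (plus), sup-6 at chrII:12944803-12944967 (minus) and smy-1 at chrIV:9511763-9511839 (minus).
C52E4.8: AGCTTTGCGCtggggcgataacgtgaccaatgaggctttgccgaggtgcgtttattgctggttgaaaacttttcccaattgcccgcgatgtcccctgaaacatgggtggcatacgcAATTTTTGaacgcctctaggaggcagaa
sup-6: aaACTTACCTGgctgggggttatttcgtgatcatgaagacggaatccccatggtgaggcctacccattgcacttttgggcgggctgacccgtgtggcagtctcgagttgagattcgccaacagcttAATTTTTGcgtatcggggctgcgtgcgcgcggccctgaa
smy-1: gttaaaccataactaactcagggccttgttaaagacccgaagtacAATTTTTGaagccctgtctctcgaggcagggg

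Each pair of the 5 RNAs was 36.4% to 58.3% identical over a global alignment, and each had closer copies elsewhere in the genome. Among the 3 RNAs shown, AATTTTTG stood at base 117 of C52E4.8, base 127 of sup-6 and base 46 of smy-1. It is not particular to their groups: it was in all 5 genes of the C52E4.8 group and 45 of 124 other annotated snRNA genes, in 12 of 13 of the sup-6 group and 38 of 116 others, and in 11 of 12 of the smy-1 group and 41 of 119 others. In sup-6 the other capitals are ACTTACCTG at base 3, which is complementary to the consensus 5′ splice site. sup-6 is known from genetics as a U1 snRNA gene, in which a mutation suppresses splicing defects of other genes. ACTTACCTG was found in 12 of 13 genes of its group and in 0 of the other 116 annotated snRNA genes, spliced leader RNAs included. C52E4.8 begins with AGCTTTGCGC, the first bases of human U4, as did all 5 genes of its group and 0 of 124 others. These words are matches of letters only, and the annotation calls W05B2.8, F38E11.10 and C52E4.8 small nuclear RNAs with no further class. smy-1 carries the SmY symbol.

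The 100 bases before each 5′ end are given with an element in capitals, because the peaks of 4 of the genes lie over it. They are chrIII:10989579-10989678 for W05B2.8, chrIV:9444542-9444641 for F38E11.10, chrV:11980018-11980117 for C52E4.8, chrII:12944968-12945067 for sup-6 and chrIV:9511840-9511939 for smy-1, each on the strand of its gene. That of smy-2, a neighbour of smy-1 on the minus strand, is chrIV:9511467-9511566.
W05B2.8: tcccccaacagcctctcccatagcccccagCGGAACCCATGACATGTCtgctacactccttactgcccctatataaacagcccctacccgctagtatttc
F38E11.10: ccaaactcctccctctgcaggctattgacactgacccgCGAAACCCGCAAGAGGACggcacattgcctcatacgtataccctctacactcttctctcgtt
C52E4.8: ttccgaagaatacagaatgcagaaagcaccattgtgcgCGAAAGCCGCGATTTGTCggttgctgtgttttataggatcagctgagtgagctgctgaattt
sup-6: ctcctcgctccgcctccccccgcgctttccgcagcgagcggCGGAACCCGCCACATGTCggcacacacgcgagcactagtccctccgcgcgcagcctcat
smy-1: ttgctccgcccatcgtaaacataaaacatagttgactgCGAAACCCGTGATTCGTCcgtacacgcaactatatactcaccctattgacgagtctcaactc
smy-2: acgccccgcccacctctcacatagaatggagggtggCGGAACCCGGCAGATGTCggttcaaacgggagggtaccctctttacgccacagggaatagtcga

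The capitals span CGNAANCC, where N is any base, then any 9 bases and a C. These 7 fixed bases were read off the 5 genes after their sequences were seen, so their presence in all 5 is a description. The element began at -70 in W05B2.8, at -62 in F38E11.10, C52E4.8 and smy-1, and at -59 in sup-6, counting from the annotated 5′ end. It was on the sense strand in each, and was found on the antisense strand of none of the 5. Over all 46886 nuclear genes with 100 upstream bases, 0.350% held it on the sense strand (164 genes) and 0.122% on the antisense strand. The word TATATA, which is its own reverse complement and does not overlap the element, stood at -31 in W05B2.8 and at -32 in smy-1, and it was not found in the other 3 windows. In all nuclear genes the share with TATATA in this window was 5.06%.

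The peak at W05B2.8 was second in the thresholded list of 2672 peaks, with a signal of 2125 in the authors' arbitrary unit, where the list ran from 29.1 to 2235 with a median of 47.2. It spanned 10989420 to 10989835 on III, inside an intron of the dynein heavy chain gene dhc-4 on the same strand, and its summit lay 54 bp upstream of the 5′ end of W05B2.8. F38E11.10 had the peak of rank 7 (IV, 9444372 to 9444768, signal 1572), with the summit at -65. C52E4.8 had that of rank 11 (V, 11979884 to 11980215, signal 1324), with the summit at -54. sup-6 had that of rank 12 (II, 12944783 to 12945184, signal 1269), with the summit at -51, in an intron of the protein-coding gene F58G1.7. All 4 summits thus lay between 30 and 80 bp upstream, as did the strongest summit at 26 of the 28 other snRNA genes with a peak. The 4 peaks were 332 to 416 bp wide, against a median of 290 bp over the list.

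The peak that placed smy-1 among the 20 strongest lay nearer to another SmY gene. It ranked 16 (IV, 9511325 to 9511705, signal 1130), and its summit was 305 bp downstream of the 5′ end of smy-1, beyond the end of this 77-bp gene. The same summit was 68 bp upstream of the 5′ end of smy-2, a 72-bp gene on the same strand that RefSeq lists as a snoRNA and whose symbol marks it as SmY. The element upstream of smy-2 began at -64, as printed above. smy-1 and both summits near it lie in introns of the protein-coding gene C33A12.3.

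smy-1 had a second, weaker peak of its own. It ranked 853 (9511758 to 9512009, signal 61.0), with the summit at -96, 401 bp from the stronger summit, whose signal was 18.5 times as high. It was narrower, at 252 bp against 381 bp. The summit lay at -42.5 bp from the centre of the smy-1 element, farther than at any of the other 4 genes. At smy-2 the summit of the strong peak lay at -12.5 bp from the centre of its element. The strong summit thus lay upstream of smy-2, at -68 bp from its 5′ end, and 305 bp downstream of the 5′ end of smy-1. The strong peak counts for smy-1 only through the window of 500 bp. It is called below the region between smy-1 and smy-2, a name for its place that does not assign it to smy-1.

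**Figure D1:**
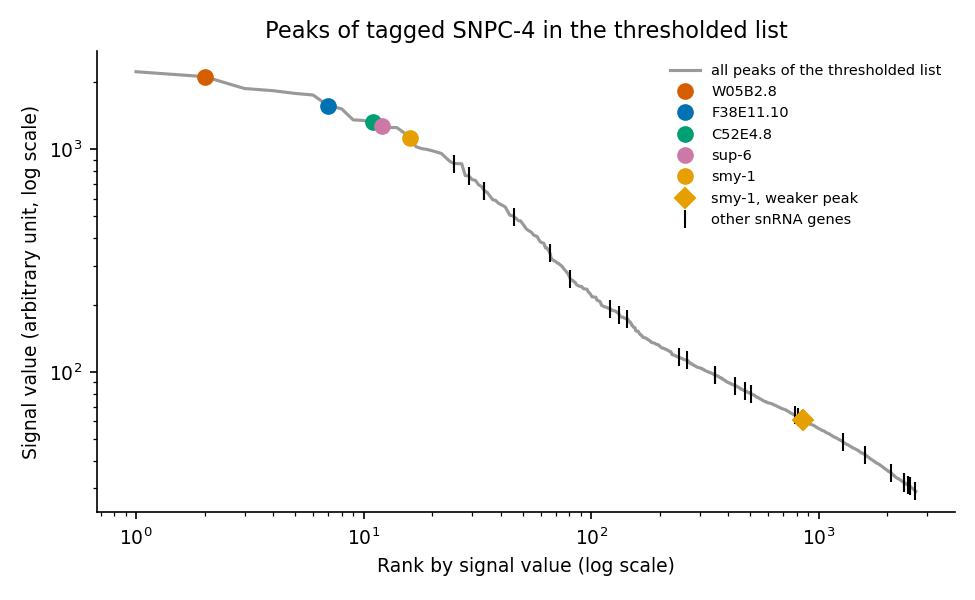
Signal value of every peak of the thresholded list against its rank, both on log scales, with 1 circle for the strongest peak within 500 bp of each of the 5 genes, a diamond for the weaker smy-1 peak and ticks for the other snRNA genes. The 5 circles lie between ranks 2 and 16, the diamond at rank 853, and the first tick at rank 25.

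Among all nuclear genes 0.0768% had 1 of the 20 strongest peaks within 500 bp (36 genes), and 6.15% had any thresholded peak there (2886 genes). Since the rule used that list, the 5 of 5 are set beside these shares only for scale. Of the other 94 snRNA genes, 28 had a peak (29.8%, exact 95% binomial interval 20.8 to 40.1). The nearest snRNA genes outside the rule were F32B5.9 (rank 25, signal 865, summit at -51), F54D8.7 (rank 29, signal 761, summit at -53) and sup-39 (rank 34, signal 652, summit at -57). The last peak also lay 64 bp upstream of mir-1831, which the annotation types as an snRNA. This peak is thus counted for both genes among the 28. The weakest peak inside the rule was that near smy-1, at rank 16, and the peak of rank 20 had a signal of 988.

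Both replicates placed the 5 strong peaks near the top of their own lists of 30000 regions, each on its own scale. W05B2.8 had a signal of 1069 in replicate 1 (rank 2) and 1111 in replicate 2 (rank 1), where it was the strongest region of all. F38E11.10 had 842 in replicate 1 (rank 9) and 742 in replicate 2 (rank 7). C52E4.8 had 732 (rank 11) and 603 (rank 13). These 3 genes kept their order in both lists.

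sup-6 had a signal of 659 in replicate 1 (rank 13) and 608 in replicate 2 (rank 11). The region between smy-1 and smy-2 had 593 (rank 16) and 603 (rank 12). C52E4.8, sup-6 and this region thus came in a different order in each replicate, and their ranks in the thresholded list are not separated by the spread between replicates. W05B2.8 and F38E11.10 ranked above the other 3 in both.

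The weaker smy-1 region differed more between the replicates. It had a signal of 71.0 in replicate 1 (rank 214) and 27.2 in replicate 2 (rank 1050). All 6 regions had the highest −log10 q-value of their list, 3.78 in replicate 1 and 3.66 in replicate 2, so this value does not order them.

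**Figure D2:**
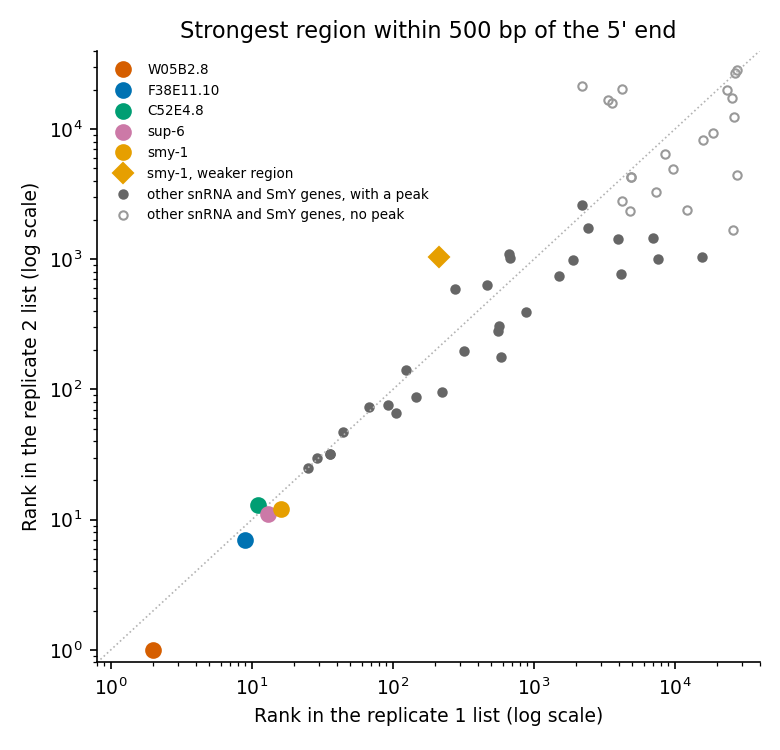
Rank of the strongest region within 500 bp of the 5′ end in the replicate 1 list (horizontal) and the replicate 2 list (vertical), both on log scales, for snRNA and SmY genes with a region in both. The 5 strong regions lie between ranks 1 and 16 in both replicates, and the weaker smy-1 region (diamond) lies at 214 and 1050, where the dotted line marks equal ranks.

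Summits moved by at most 10 bp between the replicates. At W05B2.8 the summit lay at -44 in replicate 1 and -54 in replicate 2. It lay at -65 and -69 at F38E11.10, at -54 and -56 at C52E4.8, and at -61 and -53 at sup-6. From smy-1 the strong summit lay at 308 in replicate 1 and 299 in replicate 2, and the weaker one at -87 and -93. Among the 28 other snRNA genes with a peak, the gap between the summits in the replicates had a median of 13 bp, and it was at most 10 bp in 14 of them. There the strongest region within 500 bp was taken in each replicate separately, so the summits can belong to different regions. At ZK897.3, for example, they lay at 306 bp in replicate 1 and at -52 bp in replicate 2. The differences in summit position between W05B2.8, C52E4.8 and sup-6 were within the spread between the replicates. The summit of F38E11.10 lay farther upstream than theirs in both. In replicate 1, however, it lay at -65 against -61 at sup-6, closer than the 8 bp between the replicates at sup-6.

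Relative to the element, the summits lay on either side of its centre. In the thresholded list the summit was 7.5 bp downstream of the centre at W05B2.8 and 0.5 bp upstream at both C52E4.8 and sup-6 (differences of 7.5, -0.5 and -0.5 bp). At F38E11.10 it was 11.5 bp upstream (-11.5 bp). These distances moved between the replicates, to 17.5 bp in replicate 1 and 7.5 bp in replicate 2 at W05B2.8, and to -10.5 and -2.5 bp at sup-6. They moved less at C52E4.8, at -0.5 and -2.5 bp, and at F38E11.10, at -11.5 and -15.5 bp. W05B2.8 had its summit downstream of the centre in both replicates and the other 3 upstream of it in both. The element of W05B2.8 stands 8 to 11 bases farther from the 5′ end than those of the other 4 genes, but its summit did not.

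Of the 5 genes, smy-1 alone had another thresholded peak with its summit within 1000 bp of the 5′ end, the pair described above. A second peak within that distance was found at 7 of the 28 other snRNA genes with a peak, at 7 of 17 SL2 spliced leader genes with one, and at 6.65% of all 2886 nuclear genes with one (192 genes). A further peak near smy-1 lay at -1813 (rank 1043, signal 54.5). In the pooled list with background, regions of low rank lay at -801 from W05B2.8 (rank 19371, signal 7.46), -975 from F38E11.10 (rank 17064, signal 8.15), -848 from C52E4.8 (rank 12014, signal 10.1) and -929 from smy-1 (rank 14390, signal 9.07). sup-6 had no pooled region other than its peak within 2000 bp.

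Within 500 bp, replicate 2 alone had a region downstream of C52E4.8 and of sup-6. It lay at 341 bp from C52E4.8 (rank 3336, signal 12.4) and at 347 bp from sup-6 (rank 7546, signal 6.90). Replicate 1 had no region within 500 bp of these 2 genes other than the strong one. Both are far below the strong regions in that list, and neither has a counterpart in the pooled list.

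Other annotated genes lie close to several of the 5. Upstream of C52E4.8, and on the other strand, is snr-4, which encodes an Sm protein of the snRNPs. Its 5′ end is 395 bp from that of C52E4.8, and the summit lay at -341 from it. The noncoding RNA gene C52E4.14 (143 bp, same strand) covers the summit, which lies 105 bp inside it. Of these starts, that of C52E4.8 is the nearest to the summit. The piRNA gene 21ur-10927 starts at -785 from C52E4.8.

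At sup-6 the noncoding RNA genes F58G1.11 (opposite strand) and F58G1.12 (same strand), of 144 bp each, cover the summit, which lay at 34 bp and at 110 bp from their 5′ ends. The summit is thus nearer to the start of F58G1.11 than to that of sup-6, at -51, and binding at these genes cannot be told apart by position alone. F38E11.24, a noncoding RNA gene of 128 bp, covers F38E11.10 on the opposite strand, and the summit was 189 bp from its 5′ end. The protein-coding genes F38E11.9 and hsp-12.3, a small heat shock protein gene, start at -602 and at 672 bp from the 5′ end of F38E11.10. Within 1000 bp of W05B2.8 no other gene starts.

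Copies of each RNA elsewhere in the genome were bound to very different extents. Genes at least 80% identical to W05B2.8, F38E11.10, C52E4.8 or sup-6 were grouped with it, and smy-1 was grouped with all genes of SmY symbol. The groups held 63 of the 99 snRNA genes, and of the 36 outside them 6 had a peak, among them mir-1831 by that of sup-39. Each of the 5 genes belongs to a different group.

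The W05B2.8 group had 22 other copies, 13 of them identical to it over all 102 bases. A peak was found at 6 of the 22. F54D8.7 had the strongest of them (rank 29, signal 761, 99.0% identical), 2.79-fold below W05B2.8. The identical copies R07E5.16 (rank 66, signal 341), Y9C9A.111 (rank 121, signal 192), C28A5.7 (rank 265, signal 113) and K09C6.12 (rank 430, signal 86.9) also had one, and F54C8.10 followed (rank 2378, signal 31.8). Of these 6, F54D8.7 alone holds the element with all 7 fixed bases.

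No peak was listed at the other 9 identical copies, 6 of which lie together on IV (K09B11.11 to K09B11.16) and had no pooled region. The upstream bases of W05B2.8 and of Y17G9A.90, an identical copy with a pooled region of rank 24272, were the same at 51 of 100 positions, and both hold the element at -70. Upstream sequence is printed for 2 identical copies without a peak, F54C8.9 (chrIII:9447860-9447959, minus strand, pooled region of rank 4829) and K09B11.12 (chrIV:13438997-13439096, plus strand, no pooled region), for comparison with that of W05B2.8 above. Neither holds the element with all 7 fixed bases, and both hold TATATA at -30. At best 6 of the 7 matched in F54C8.9 and 4 in K09B11.12, with the first base 55 to 75 bp upstream. These 2 do not stand for all copies without a peak, since T08B6.62 and Y17G9A.85 hold all 7. Conversely, 4 of the 7 matched in R07E5.16, which had a peak, and 6 in C28A5.7, K09C6.12, Y9C9A.111 and F54C8.10, which also had one.
F54C8.9: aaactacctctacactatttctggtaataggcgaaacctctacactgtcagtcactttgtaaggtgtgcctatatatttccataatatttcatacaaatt
K09B11.12: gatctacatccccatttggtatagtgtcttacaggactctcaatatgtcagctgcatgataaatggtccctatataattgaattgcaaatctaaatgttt

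F38E11.10 had 11 other copies, and a peak was found at 5 of them. F32B5.9 was the strongest (rank 25, signal 865, 89.4% identical), 1.82-fold below F38E11.10. F42C5.12 (rank 133), F38E11.11 (rank 504), F07C6.5 (rank 813) and ZK897.3 (rank 2366) followed. F38E11.11 is identical to F38E11.10 over all 122 bases and starts 19996 bp from it, yet F38E11.10 had a signal of 1572, against 79.9 at F38E11.11. ZK897.4 and C53B4.9, both 98.4% identical, had no thresholded peak. The upstream bases of F38E11.11 (chrIV:9464639-9464738, minus strand), printed below, hold the element at -61, against -62 in F38E11.10. Counted from the 5′ end without gaps, they match those of F38E11.10 at 30 of 100 positions. That is the median over the 128 other snRNA genes compared.

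Of the 4 copies of C52E4.8 only F10D2.13 had a peak (rank 843, signal 61.3, 96.5% identical), 21.6-fold below C52E4.8. T11F9.15 is identical to C52E4.8 over all 144 bases and had no pooled region within 500 bp, and in the replicate lists it had a region of rank 7258 in replicate 2 and none in replicate 1. K03B8.10 and T11F9.16, each 99.3% identical, had no pooled region either. All 4 copies hold the element at -62, as C52E4.8 does. The window of T11F9.15 is chrV:11478048-11478147 (plus strand).
F38E11.11: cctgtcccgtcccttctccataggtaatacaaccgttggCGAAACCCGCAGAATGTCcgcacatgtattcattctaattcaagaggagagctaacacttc
T11F9.15: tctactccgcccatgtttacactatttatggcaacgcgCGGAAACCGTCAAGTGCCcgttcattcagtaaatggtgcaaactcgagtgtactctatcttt

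sup-6 had 12 copies of 85.5% to 97.6% identity, and 6 of them had a peak. sup-39, also known from genetics as a U1 gene, was the strongest (rank 34, signal 652), 1.95-fold below sup-6. F08H9.11 (rank 81), T08G5.11 (rank 144), H27M09.6 (rank 349), F08H9.10 (rank 352) and F40G12.13 (rank 2659) followed. F40G12.14, at 97.0% identity, had neither a peak nor a pooled region. In the replicate lists it had a region of rank 2913 in replicate 2 (signal 13.9, summit at -63) and none in replicate 1.

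The SmY genes outside smy-1 numbered 11, and 6 of them had a peak. Beside smy-2, with its summit at -68, these were smy-3 (rank 80, signal 271, summit at -51), smy-8 (rank 789, signal 63.8), smy-10 (rank 1597, signal 42.6), smy-12 (rank 2470, signal 31.0) and smy-9 (rank 2524, signal 30.6). The weaker smy-1 peak, at rank 853, falls between smy-8 and smy-10 in this order. smy-5, the SmY gene most like smy-1 (81.8% identical), and smy-7 had no pooled region.

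**Figure D3:**
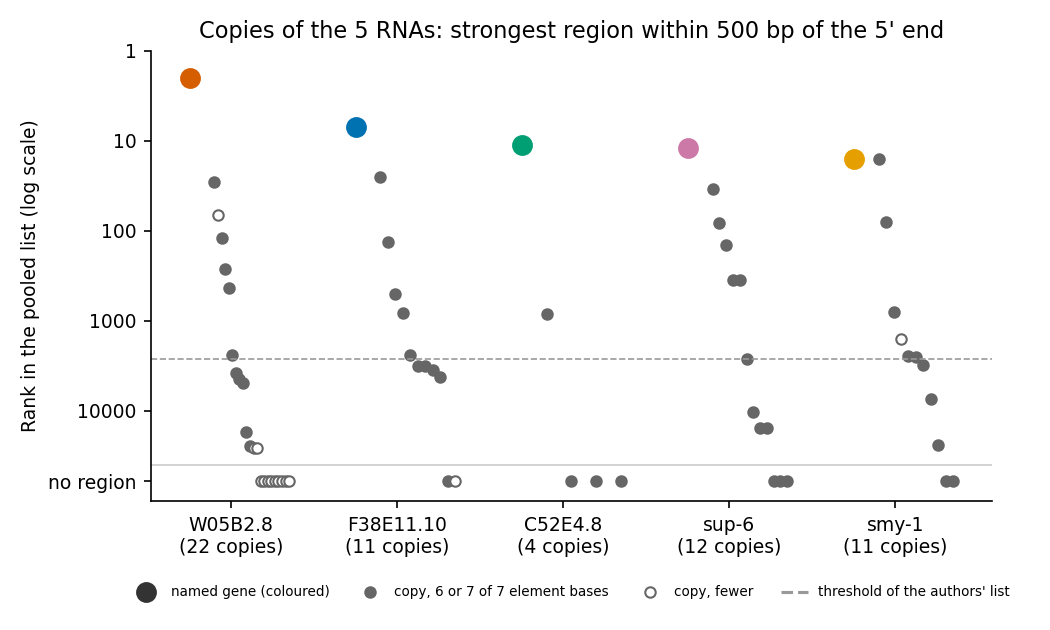
Rank in the pooled list (log scale, strongest at the top) of the strongest region within 500 bp of the 5′ end, for each of the 5 genes (large coloured circle) and the copies of its RNA (small circles, filled where at least 6 of the 7 fixed element bases were found with the first base 55 to 75 bp upstream). Each named gene lies at rank 16 or above, its copies run from rank 16 (smy-2, which shares its peak with smy-1) or 25 down to no region, and the dashed line marks the threshold of 2672 peaks.

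Reads from the RNA sequence itself could not be placed uniquely at 3 of the genes. Of the words of 50 bases within W05B2.8, F38E11.10 and C52E4.8, 0% occurred once in the genome, against 76.7% within sup-6 and 100% within smy-1. The 200 bp centred 54 bp upstream were 98.7% to 100% unique by words of 50 bases at all 5 genes, and 90.3% to 100% by words of 36. These windows hold the strongest summit of each gene but smy-1, where they hold the weaker one. The strong summit there lies in the same window of smy-2, which was 100% unique by both. Among copies without a strong peak the upstream share varied. At T11F9.15 it was 100%, at F38E11.11 100% and at Y17G9A.90 99.3%, whereas at F54C8.9 it was 31.1%, at K09B11.12 74.8%, and at T27E4.10 and T27E4.11 of the sup-6 group 0%. Among the W05B2.8 copies, 16 of 22 had at least 50% unique sequence there, and 6 of the 16 had a peak. The length of the reads and the treatment of reads with several positions are unknown, so the part of this in the missing peaks was not tested.

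The element was found upstream of snRNA genes with and without a peak, and its part in binding was not tested. Of the other snRNA genes with a peak 12 of 28 held it (42.9%), against 16 of 66 without a peak (24.2%). The element and peak of sup-39 are counted for mir-1831 as well. T27E4.12 and T27E4.22, which have no peak, likewise share an element, so these counts are of genes and not of separate elements. With the first base 55 to 75 bp upstream and 1 of the 7 fixed bases free to differ, the counts were 21 of 28 (75.0%) and 24 of 66 (36.4%), and 1.34% of all nuclear genes had such a match. Among the 164 nuclear genes with the element, 67 had a thresholded peak (40.9%), against 6.15% of all nuclear genes. Of the 164, 13 had 1 of the 20 strongest peaks: the 5 chosen genes, 7 snoRNA genes and 1 spliced leader gene. The snoRNA genes include smy-2, which shares its peak with smy-1. Over all nuclear genes, the chosen genes included, the share was 0.0768%. By type, peaks were at 17 of 33 snRNA genes, 20 of 25 snoRNA genes, 10 of 11 spliced leader genes and 9 of 24 other noncoding RNA genes. They were at 7 of 48 protein-coding genes and 2 of 17 piRNA genes, and each remaining type had at most 2 genes with the element. These counts over the 164 genes include the 5 genes themselves, which hold the element because the letters were read on them and a top peak because of how they were chosen. Without them the snRNA genes with the element and a peak number 12 of 28. The element was placed at -70 in the W05B2.8 group (all 5 genes of the group that hold it) and TATATA was found upstream of 15 of its 22 copies, but of none of the copies of F38E11.10, C52E4.8, sup-6 or smy-1.

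Upstream sequence was compared across the 128 other genes of snRNA type, spliced leader genes included. Bases were compared position by position from the annotated 5′ end, without gaps, so a shift in position lowers the count. The median number of identical bases of 100 was 25 to 30 for the 5 genes. For W05B2.8 the most alike were T08B6.62 (55 of 100), Y17G9A.85 (54) and Y9C9A.111 (53), all from its own group, and for sup-6 they were F08H9.10 (64), F40G12.14 (63) and T08G5.11 (61), also from its own. For F38E11.10 they were the SL2 spliced leader genes sls-2.14 and sls-2.15 (55 each), and T11F9.15 (50). C52E4.8 was most like sls-2.5 (53), sls-2.16 (48) and sls-2.18 (46), and smy-1 most like sls-2.12 (59), sls-2.17 (56) and sls-2.13 (55). Their peaks were of rank 49 at sls-2.14, 108 at sls-2.5, 53 at sls-2.16, 92 at sls-2.18, 129 at sls-2.17 and 124 at sls-2.13. None was listed at sls-2.12 or at T11F9.15. At sls-2.15 the strongest peak within 500 bp was that of sls-2.14, with its summit at -429, and the nearest summit lay at -45. Likeness to one of the 5 genes, counted in this way, came with peaks of very different rank. Of the spliced leader genes as a whole, 17 of 19 SL2 genes and 0 of 12 SL1 genes had a peak. The 12 SL1 genes lie together on V, and none had a region in the pooled list or in either replicate list. Whether reads can be placed uniquely at the SL1 genes was not tested, so their missing peaks do not show that they are unbound.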

How the data were processed

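Lists of regions from chromatin immunoprecipitation with sequencing were used on the ce11 assembly. Per the descriptions deposited with the files, the authors called regions on each replicate and on both pooled, with a control alignment, and deposited 30000 regions each, peaks and background together. From these they made a list of 2672 thresholded peaks by irreproducible discovery rate, which have the positions and signal of pooled regions. The signal value of each region, as the authors deposited it, has an arbitrary unit that differs between lists, and was used to rank regions within each. The −log10 q-value is also as deposited. The aligner, caller, read length and depth were not given in the sources used here, so no interval based on reads is given. Lists on ce10 were not used. A region was placed at its summit, as deposited, and assigned to genes of the RefSeq annotation of WBcel235 whose 5′ end lay within 500 bp, the strongest counting. Positions upstream of the 5′ end are negative. RNA genes were aligned globally with Biopython 1.88 (match 1, mismatch -1, gap opening -2, extension -0.5), and identity is over the longer gene. Upstream bases were compared position by position from the 5′ end, without gaps. Uniqueness is the share of words of 36 or 50 bases that occur once in the genome on either strand. The code that assigns positions was tested on simulated data. The RNA sequences of W05B2.8 and F38E11.10, and words within them, are not reported here.

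No test was run: strength, position and replicate ranks all come from the lists that chose the genes. The genes and lists were chosen with earlier results of these data known. Genes named beside the 5 are those starting within 1000 bp, the 3 snRNA genes most alike in gene or upstream sequence, the 3 next below the 20 strongest peaks, genes that contain one of the 5, and, chosen after values were seen, mir-1831 and further copies, among them smy-2. Exact binomial intervals cover counting error only, and neighbouring genes are not independent.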

Additional observations from a re-analysis of the deposited data

How the results depend on the processing

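The median summit position of the strongest peaks at the 5 genes was -54 bp, and -52 bp with interval midpoints in place of summits. Their median rank was 11, and 9 over nuclear peaks only. With the pooled list and its background in place of the thresholded list, 4 genes rather than 1 had a second region within 1000 bp. Leaving out either replicate left these medians at -54 bp and 11, and the count of second peaks at 1. The count of summits 30 to 80 bp upstream was 4, and 3 with midpoints. At smy-1 the summit was at 305 bp, but at -96 bp with the nearest summit or a window of 250 bp, which takes the weaker peak. With that window its rank was 853, against 16. No paired analysis was possible because there is 1 group and no test. The lists hold no read counts, so depth sets no interval here. With 2 replicates the spread of a position or rank rests on 2 values.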
